A study of Mus musculus with 4 samples.

Results

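Labelled RNA of 10 long noncoding genes, whose RNA stays in the nucleus or is processed there, was examined in double positive (DP) thymocytes: Malat1, Neat1, Gas5, Snhg1, Snhg3, Snhg6, Snhg8, Snhg12, Dleu2 and Mir17hg. They were chosen by symbol, from what the genes are known to be and not from a measured value, although earlier results of these data were known. All 10 were among the 24984 genes of the table. The libraries came from TTchem-seq, in which cells take up 4-thiouridine for a short time and the RNA made in that time is fragmented, biotinylated, purified and sequenced. The values therefore describe synthesis and not the amount of stable RNA in the cell. The question was whether transcription of these genes differed when Tox4, a regulator of PP1 phosphatases, was deleted.

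There were 2 libraries of wild-type (WT) and 2 of conditional knockout (cKO) cells. The WT cells were of genotype Tox4;F/F, so they carried the floxed alleles but no Cre, and the cKO cells were of genotype Tox4;F/F;Lck+, in which Lck-Cre removes exons 4 to 6. All mice were of C57BL/6 background and 6 to 8 weeks of age. Cre was present in the cKO cells alone, so that effects of Cre and of the loss of Tox4 cannot be told apart. The proximal Lck promoter is active before the DP stage, and the cKO cells had thus passed through earlier stages without the gene. The methods describe purification of DP cells with beads against CD4, which CD4 single positive thymocytes carry as well, without naming this assay.

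Malat1 and Neat1 are abundant nuclear RNAs. Malat1 lies in nuclear speckles, and Neat1 is the scaffold around which paraspeckles form. Gas5 and the Snhg genes are hosts of small nucleolar RNAs (snoRNAs), which are cut out of the introns of the host transcript and guide the methylation (box C/D snoRNAs) or the pseudouridylation (box H/ACA snoRNAs) of ribosomal RNA, while the spliced remainder is often short-lived. Dleu2 and Mir17hg are hosts of microRNAs, which Drosha and Dicer release from the transcript. For these hosts the small RNA is made after synthesis, at a step that labelled RNA does not measure.

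The microRNAs inside or next to the rows of Dleu2 and Mir17hg are shown first, because their seeds define what the hosts are made for. Each mature sequence was taken from RefSeq (GRCm38.p6), with the seed, bases 2 to 8, in capitals, and 1 arm of each hairpin is printed. The printed arms of the Dleu2 pair, known to repress cyclins and Bcl2, shared 1 seed:
mmu-miR-15a-5p (chr14:61632075-61632096, minus strand): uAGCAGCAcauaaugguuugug
mmu-miR-16-5p (chr14:61631936-61631957, minus strand): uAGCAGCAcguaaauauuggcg
The printed arms of the Mir17hg cluster, known to favour growth and survival of lymphocytes, held 4 seeds, of which 2 were shared by 2 microRNAs each:
mmu-miR-17-5p (chr14:115043684-115043706, plus strand): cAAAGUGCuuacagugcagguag
mmu-miR-20a-5p (chr14:115044183-115044205, plus strand): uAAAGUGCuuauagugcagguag
mmu-miR-19a-3p (chr14:115044048-115044070, plus strand): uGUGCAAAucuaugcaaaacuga
mmu-miR-19b-3p (chr14:115044358-115044380, plus strand): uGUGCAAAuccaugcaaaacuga
mmu-miR-18a-5p (chr14:115043867-115043889, plus strand): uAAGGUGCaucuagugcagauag
mmu-miR-92a-3p (chr14:115044476-115044496, plus strand): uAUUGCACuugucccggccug
The seed of miR-15a and miR-16 does not occur among the printed arms of the Mir17hg cluster.

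Of the small RNAs made from the other hosts that had rows of their own in the table, 4 are shown, as examples of each kind. Sequences were read from GRCm38 at the coordinates of the table. Mascrna, a cytoplasmic small RNA that RNase P and RNase Z cut from the 3′ end of Malat1 and that folds like a tRNA, is printed with no capitals. Capitals mark the C box (TGATGA) and the D box (CTGA) of Snord47 and Snord87 and the ACA box of Snora24:
Mascrna (chr19:5795924-5795981, minus strand): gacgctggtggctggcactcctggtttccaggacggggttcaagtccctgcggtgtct
Snord47 (chr1:161038092-161038156, plus strand): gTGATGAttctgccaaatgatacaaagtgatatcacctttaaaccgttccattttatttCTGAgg
Snord87 (chr1:9942470-9942543, minus strand): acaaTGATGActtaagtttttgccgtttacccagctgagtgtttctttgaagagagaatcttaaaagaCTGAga
Snora24 (chr3:123507937-123508066, minus strand): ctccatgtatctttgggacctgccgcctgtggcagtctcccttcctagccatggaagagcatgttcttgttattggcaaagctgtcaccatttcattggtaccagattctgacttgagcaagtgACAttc
Snord47 lay in Gas5, Snord87 in Snhg6 and Snora24 in Snhg8. In the RefSeq annotation the 6 snoRNA hosts held 24 snoRNA genes, with 8 each in Gas5 and Snhg1, 4 in Snhg12, 2 in Snhg3 and 1 each in Snhg6 and Snhg8. Of these, 23 lay wholly in introns, the exception being Snora24, whose host Snhg8 is annotated as a single exon. Only 8 of the 24 had rows in the table. The snoRNAs printed are among those in which the boxes were found. By the same search no C box was found in Snord22 and Snord99, and no ACA box in Snora44.

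Transcripts of many snoRNA hosts are known to begin with a run of pyrimidines, as messengers of ribosomal proteins do, so the bases around the annotated starts were compared. The windows below are from RefSeq (GRCm38.p6) and run 5′ to 3′ on the strand of the gene, with the transcribed bases in capitals:
Snhg12: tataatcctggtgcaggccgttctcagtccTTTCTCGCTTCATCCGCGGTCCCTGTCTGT
Snhg8: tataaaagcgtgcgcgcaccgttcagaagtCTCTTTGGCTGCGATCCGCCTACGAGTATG
Gas5: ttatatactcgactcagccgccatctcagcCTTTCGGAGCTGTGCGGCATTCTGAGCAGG
Snhg1: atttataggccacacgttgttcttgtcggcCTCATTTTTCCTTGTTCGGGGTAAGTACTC
Snhg3: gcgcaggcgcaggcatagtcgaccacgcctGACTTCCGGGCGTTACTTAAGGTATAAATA
An unbroken run of C and T across the start had 9 bases at Snhg12, a length that 3.03% of 32851 promoter windows reached or passed. It had 7 bases at Snhg8 (5.28% of windows), 6 at this start of Gas5 (7.25%) and 4 at Snhg1 (13.97%). Snhg3 began with G, after a T, and had no such run. RefSeq gave Gas5 a second start further upstream, where the run was absent as well. These are annotated starts, and no start was mapped in these libraries.

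The libraries held between 38429786 and 48690591 fragments, of which the 10 genes took 0.119% and 0.106% in WT and 0.0967% and 0.102% in cKO. The deleted gene, Tox4, was counted at 74.0 and 70.3 CPM (fragments of a gene scaled to the total of its library) in WT and at 59.3 and 57.2 in cKO, over a row that spans the whole gene and not the deleted exons alone. WT replicate 1 stood apart from the other 3 libraries. It had 172 CPM of Xist, against at most 2.36 in the others, and 0.164 and 0.962 CPM of the Y-linked Ddx3y and Uty, against at least 54.0 and 160 CPM, as a library of another sex than the other 3 would, although the methods state gender-matched littermates. Its summed level of 22 proliferation genes was 681 CPM, against 1003 in WT replicate 2 and 1140 and 995 in cKO. Genes that mark DP thymocytes were present in every library, all 14 above 1 CPM on average and at a sum of 9464 to 10909 CPM, among them Cd8a at 383 to 629 CPM and Rag1 at 802 to 1169 CPM. Markers of other cells were low: the summed level was 12.2 to 14.3 CPM for 6 B cell genes, mostly from Ebf1 and Cd79b, 9.34 to 11.96 CPM for 9 myeloid genes, mostly from Cd68, and at most 0.780 CPM for 8 erythroid genes. The myeloid genes did not move one way. Lyz2 (57 and 59 fragments in WT, 12 and 27 in cKO) and Csf1r (38 and 26 in WT, 6 and 13 in cKO), both at a mean below 1 CPM, lay below WT in both cKO libraries. Itgam lay above WT in both, at 1.06 and 1.07 CPM in WT and 1.51 and 1.53 CPM in cKO, and Cd68, at 7.67 and 5.50 CPM in WT and 9.21 and 7.52 CPM in cKO, overlapped. These 2, the only myeloid genes with a mean of at least 1 CPM, had a median log2 fold change of 0.43. DESeq2 called 0 of them, against 3.71% of all genes. An unadjusted p-value under 0.05 was reached by 0 with DESeq2, edgeR or limma voom, against 13.5%, 15.3% and 15.9% of all genes. Of 11 stromal genes Psmb11 was at 0 throughout and 2, Pecam1 and Pdgfrb, exceeded 1 CPM, and Pecam1, at 360 to 416 CPM, made up most of their sum. Mature single positive genes, 10 of 10 above 1 CPM, summed to 593 and 590 CPM in WT and 612 and 533 CPM in cKO. DESeq2 called 3 of the 10 mature single positive genes higher in cKO and 1 lower (40%). Of the 14 DP genes it called 0 higher and 2 lower (14.3%). Over all genes 3.71% were called. Cd8a and Rag1 were the DP genes called lower, Ccr7 was the single positive gene called lower, and Il7r and Runx3 were among those called higher. The part of such differences in the values below was not tested. In bulk RNA, fewer cells of a kind and less RNA per cell cannot be told apart.

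The 10 genes differed widely in level. On the scale of CPM per kb of gene length, Malat1 was highest, with a mean of 67.0 over the 4 libraries and a range of 52.1 to 85.2, above 99.4% of the 11625 genes that had a mean of at least 1 CPM. Neat1 followed at a mean of 12.7 (11.9 to 14.1) and Gas5 at 11.1 (10.3 to 12.5), and these ranges overlapped. Snhg8 came next at a mean of 7.65 (5.04 to 9.44) and lay apart from Gas5 above it and from Snhg1 below it, at 4.54 (4.21 to 4.97). Below that level no neighbour in the order was separated from the next: Snhg12 had a mean of 3.96, Snhg3 of 3.89, Dleu2 of 3.03, Snhg6 of 2.55 and Mir17hg of 2.37 CPM per kb. Malat1, Neat1 and Dleu2 together held 91.4% to 92.2% of the fragments of the 10 genes, Dleu2 through its length of 79538 bp, of which 97.9% is intron. Without division by length only 5 genes kept their rank, and Dleu2 rose from the eighth place to the third.

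**Figure D1:**
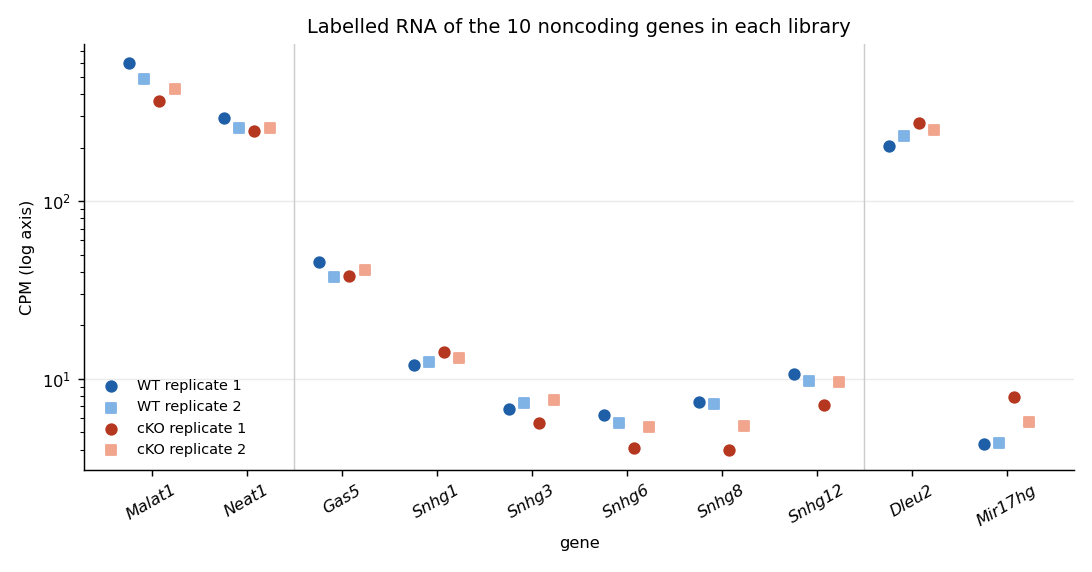
CPM of each of the 10 genes (log axis) in the 4 libraries, with blue points for WT, red for cKO, circles for replicate 1 and squares for replicate 2; vertical lines part the nuclear RNAs, the snoRNA hosts and the microRNA hosts. Malat1 lies between 364 and 595 CPM with both cKO points below both WT points, and Mir17hg between 4.29 and 7.86 with both cKO points above.

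A gene was called when its mean reached 1 CPM, its level differed by 1.2 times or more and its adjusted p-value was under 0.05. By the DESeq2 Wald test 1 of the 10 genes was called, Malat1, which was lower in cKO. Over all 11625 genes at 1 CPM, 3.71% were called in either direction, 1.57% lower and 2.14% higher. The edgeR quasi-likelihood test and limma voom called 0 of the 10, against 0.413% and 0.723% of all genes. At an unadjusted p-value under 0.05 the count was 4 of 10 (Malat1, Snhg8, Dleu2 and Mir17hg) with each of DESeq2, edgeR and limma voom, against 13.5%, 15.3% and 15.9% of all genes. In 7 of 10 genes the cKO libraries were either both lower or both higher than the WT libraries, against 48.9% of all genes. They lay below in 4 (Malat1, Snhg6, Snhg8 and Snhg12), against 24% of all genes, and above in 3 (Snhg1, Dleu2 and Mir17hg), against 24.9%. The log2 fold change of cKO over WT was below 0 in 7 genes and above 0 in 3, with a median of -0.10, beside a median of 0.00 over all genes. The libraries are labelled as replicates, and the p-values rest on these 4 libraries. Each test takes the spread of a gene partly from that of other genes. An interval can therefore be narrower or wider than the gene's own libraries would give. Fragments are not independent molecules, since no molecular identifiers were described.

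**Figure D2:**
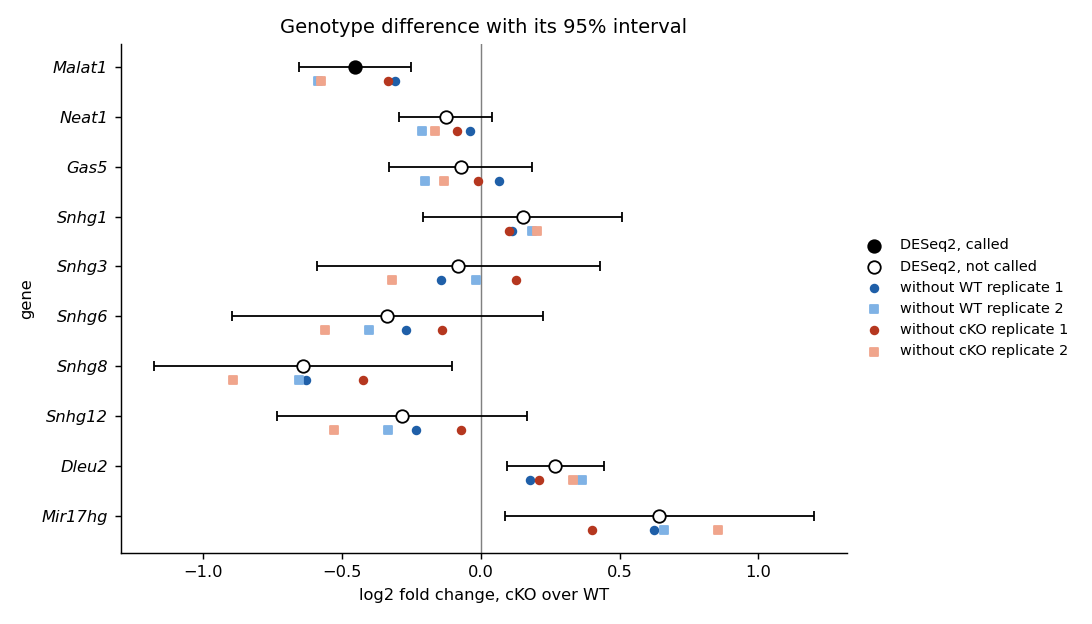
Log2 fold change of cKO over WT for each gene (large circles, filled where called by DESeq2) with its 95% interval (line), and below it the value when each of the 4 libraries is left out. The interval of Malat1 runs from -0.65 to -0.25, those of Snhg8, Dleu2 and Mir17hg also lie on 1 side of 0, and Gas5 and Snhg3 have left-out values on both sides.

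Malat1 (chr19:5795690-5802672, minus strand, GRCm38, a single exon of 6983 bp) was counted at 595 and 486 CPM in WT and at 364 and 426 CPM in cKO. Both cKO libraries were below both WT libraries, and the highest value was that of WT replicate 1. The mean was 540 ± 77.3 CPM in WT and 395 ± 44.0 CPM in cKO (SD, n = 2 each), from between 13993.5 and 25366.5 fragments per library. The log2 fold change was -0.45 (SE 0.102), that is 0.731 of the WT level with a 95% interval of 0.636 to 0.840, at a DESeq2 adjusted p-value of 0.000808. This call depended on the test, with the same fold change: the adjusted p-value was 0.162 with edgeR and 0.127 with limma voom. It also depended on single libraries: the DESeq2 log2 fold change was -0.31 (adjusted p-value 0.177) without WT replicate 1 and -0.34 (0.408) without cKO replicate 1. WT replicate 1, the library with Xist and with the lowest proliferation genes, carried the highest Malat1 level, and the part of these differences in the Malat1 value was not tested.

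The promoter of Malat1 is shown because Malat1 was the gene called (RefSeq, GRCm38.p6, chr19:5802623-5802922, minus strand, from 250 bases before to 50 after the start), with the core of the cAMP response element (TGACGT, on either strand) in capitals:
Malat1: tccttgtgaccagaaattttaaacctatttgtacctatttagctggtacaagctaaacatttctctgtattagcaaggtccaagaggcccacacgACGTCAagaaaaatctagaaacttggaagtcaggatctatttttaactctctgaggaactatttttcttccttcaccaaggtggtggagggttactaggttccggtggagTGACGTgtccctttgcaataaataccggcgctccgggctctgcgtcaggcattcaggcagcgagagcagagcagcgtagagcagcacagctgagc
The motif was found on each strand once. It was present in 7.51% of 32851 promoter windows and in 2 of the 9 windows of the 8 genes that had one, the other being the start of Gas5 printed above. A match is a description of the letters and not a binding site. Of the other motifs searched on both strands, the TATA box core TATAAA was in 4 of the 9 windows and in 13.6% of all windows. It lay before the annotated start at Snhg1 and Snhg8, but after it at Dleu2 and Snhg3. The window of Mir17hg was set at the start of its row, among the microRNAs of the cluster. GGGCGG was in 5 of 9 and 35.7%. CCAAT was in 2 of 9 and 37.4%, and CACGTG in 1 of 9 (Dleu2) and 7.15%.

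Neat1 (chr19:5824710-5845480, minus strand) was counted at 294 and 258 CPM in WT and at 247 and 259 CPM in cKO. The genotypes overlapped, since WT replicate 2 lay between the cKO libraries. Its log2 fold change was -0.13 (95% interval -0.29 to 0.04), with a DESeq2 adjusted p-value of 0.561. The row covers the long transcript, which contains the short one, so the 2 RNAs cannot be told apart here. Malat1 over Neat1, a ratio within each library that does not depend on scaling, was 2.03 and 1.89 in WT and 1.47 and 1.65 in cKO, lower in both cKO libraries than in both WT libraries.

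At the other end of Malat1, the row of Mascrna (58 bp) held 34 and 30 fragments in WT and 26.5 and 32 in cKO. The genotypes overlapped in these counts. As a share of the fragments of the 2 rows together it was 0.134% and 0.127% in WT and 0.189% and 0.188% in cKO, without overlap, from a count of at most 34 fragments. Fractional counts show that some fragments were split between rows, but how a fragment in both of these rows was counted was not given. The genes that cleave or bind the end of Malat1 (RNase P, RNase Z and Mettl16) gave 1 call among 12 measured, against 3.71% of all genes. Pop5, a subunit of RNase P, was at 13.1 and 10.3 CPM in WT and 6.71 and 6.74 CPM in cKO, which is -0.80 on the log2 scale (SE 0.223, adjusted p-value 0.0129 by DESeq2 and 0.124 by edgeR). The median log2 fold change of the list was 0.00, as over all genes. Of 19 measured genes of paraspeckle and speckle proteins DESeq2 called 0, against 3.71% of all genes. At an unadjusted p-value under 0.05 there were 2 with DESeq2 and 4 with edgeR, against 13.5% and 15.3% of all genes. The median log2 fold change of the 19 was -0.01. The most highly counted of the 19 were Srrm2 and Son, which code for scaffold proteins of speckles. Srrm2 differed by -0.07 on the log2 scale (SE 0.0682, adjusted p-value 0.735 by DESeq2), and Son was at 458 and 451 CPM in WT and 390 and 393 CPM in cKO, a log2 fold change of -0.22 with a DESeq2 adjusted p-value of 0.0469 that fell short of the fold criterion.

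Gas5 (chr1:161034916-161038539, plus strand), whose spliced RNA is known to gather when growth stops, was counted at 45.3 and 37.2 CPM in WT and at 37.8 and 40.8 CPM in cKO. The cKO values lay between the WT values. By DESeq2 it differed by -0.07 on the log2 scale (95% interval -0.33 to 0.19, adjusted p-value 0.888), which turned to 0.07 without WT replicate 1. Snhg1 (chr19:8723487-8726326, plus strand) was counted at 11.96 and 12.4 CPM in WT and at 14.1 and 13.1 CPM in cKO. It was the only snoRNA host of the 6 with both cKO libraries above both WT libraries, by a log2 fold change of 0.15 (95% interval -0.21 to 0.51, DESeq2 adjusted p-value 0.813). Both genes share a start region with a protein-coding gene on the other strand, described further on.

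Snhg3 (chr4:132351933-132353686, minus strand), host of box H/ACA snoRNAs, was counted at 6.73 and 7.27 CPM in WT and at 5.65 and 7.62 CPM in cKO. The cKO libraries held the lowest and the highest value. The difference was -0.08 on the log2 scale (95% interval -0.59 to 0.43, DESeq2 adjusted p-value 0.947) and turned to 0.13 without cKO replicate 1. Snhg6 (chr1:9942025-9944118, minus strand), host of Snord87, was counted at 6.26 and 5.65 CPM in WT and at 4.06 and 5.38 CPM in cKO. Both cKO values were below the WT values, but the interval of the log2 fold change of -0.34 ran from -0.90 to 0.22 (DESeq2 adjusted p-value 0.689). Snhg12 (chr4:132308678-132311024, plus strand), which holds snoRNAs of both classes, was counted at 10.6 and 9.78 CPM in WT and at 7.10 and 9.66 CPM in cKO, with cKO replicate 2 close to WT replicate 2. Its log2 fold change was -0.28 (95% interval -0.73 to 0.17, DESeq2 adjusted p-value 0.665), and it ranged from -0.53 (cKO replicate 2 left out) to -0.07 (cKO replicate 1 left out).

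Snhg8 (chr3:123507552-123508336, minus strand) had the lowest fold change of the 10 genes, but was not called. It was counted at 7.41 and 7.21 CPM in WT and at 3.96 and 5.43 CPM in cKO, from between 152.5 and 351 fragments per library. Both cKO libraries were below both WT libraries, and the cKO libraries differed from each other more than the WT libraries did. The log2 fold change was -0.64 (SE 0.274, 95% interval -1.18 to -0.10), with a DESeq2 p-value of 0.0193 and an adjusted p-value of 0.208. The row of Snora24 inside it, printed above, held 131 and 142 fragments in WT and 51.5 and 99 in cKO, which was 25.2% to 31.4% of the fragments of the 2 rows in each library. With both rows merged, an alternative chosen after seeing the data, the log2 fold change of Snhg8 was -0.64 and the adjusted p-value 0.144. The share of Snora24 in the cKO libraries lay on both sides of that in the WT libraries, while the summed level of the 2 rows was 10.5 and 10.1 CPM in WT and 5.31 and 7.92 CPM in cKO.

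The other rows inside hosts held fewer fragments. The 4 snoRNA rows in Snhg12 (Snora16a, Snora44, Snora61 and Snord99) held 127 and 90.7 fragments in WT and 96.8 and 61.5 in cKO, between 13.8% and 26.2% of the fragments of host and snoRNA rows together. Snord22 in Snhg1 was at 0.798 and 0.678 CPM in WT and at 0.677 and 0.528 CPM in cKO, with WT replicate 2 and cKO replicate 1 almost equal. Snord47 in Gas5 held 5.5 to 10.5 fragments and Snord87 in Snhg6 12 to 15.5. Snora24 was the only snoRNA row inside a host with a mean of at least 1 CPM, so the other 7 could not meet the criteria for a call.

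**Figure D3:**
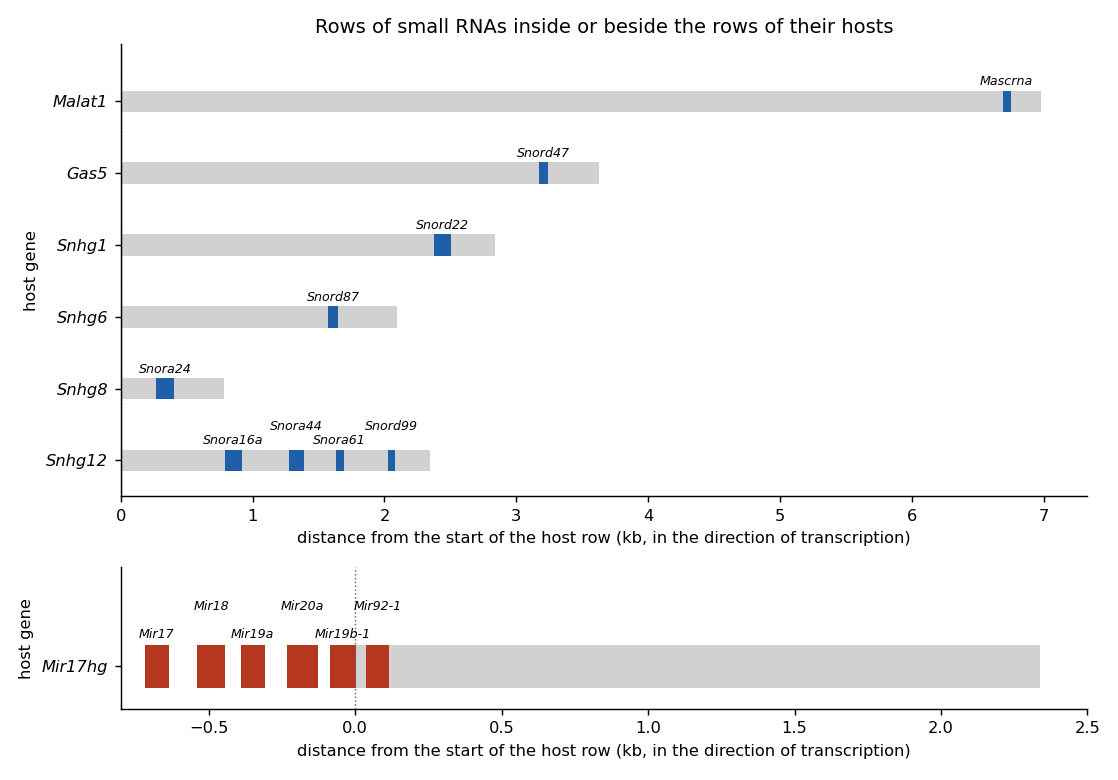
Rows of 6 hosts (grey) with the small RNA rows inside them (blue) in the upper panel, and of Mir17hg with the microRNA rows of its cluster (red) in the lower, by distance from the start of the host row in kb. The row of Mir17hg begins after Mir17, Mir18, Mir19a and Mir20a.

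The levels of the 6 snoRNA hosts were also summed. The summed level was 88.3 and 79.6 CPM in WT and 72.7 and 81.9 CPM in cKO, so that the genotypes overlapped, with a ratio of means of 0.921. Gas5 was the most highly counted of the 6. Without it the sum of the 5 Snhg genes was 43.0 and 42.3 CPM in WT and 34.9 and 41.1 CPM in cKO, without overlap, with a ratio of means of 0.891. For all 6 hosts the median log2 fold change was -0.18, with 5 hosts below 0 and 1 above. Of 10 other noncoding snoRNA hosts at 1 CPM or more, DESeq2 called 0, against 3.71% of all genes. At an unadjusted p-value under 0.05 there was 1 by DESeq2 and by edgeR, against 13.5% and 15.3% of all genes. The median log2 fold change of these 10 was -0.08. The 2 most highly counted, Snhg17 and Snhg5, had log2 fold changes of -0.26 (SE 0.119) and -0.10 (SE 0.216), with DESeq2 adjusted p-values of 0.249 and 0.905. Snhg17 was at 42.5 and 40.4 CPM in WT and at 33.9 and 35.2 CPM in cKO, without overlap.

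Protein-coding hosts of snoRNAs, which are mostly genes of ribosomal proteins and of translation, were all measured at 1 CPM or more (28 of 28). DESeq2 called 3 of the 28 lower and 0 higher, against 1.57% and 2.14% of all genes, and edgeR, at adjusted p-values of 0.146 to 0.158, called none of these 3. Eef2, the translocase of translation elongation, was at 372 and 412 CPM in WT and 301 and 320 CPM in cKO (-0.34 on the log2 scale, SE 0.0828, adjusted p-value 0.00242 by DESeq2). Rack1, a ribosomal scaffold protein, had a log2 fold change of -0.32 (adjusted p-value 0.0158) and Nop56, a core protein of box C/D snoRNPs, of -0.30 (0.0492). The median log2 fold change of the list was -0.14, with 25 of 28 below 0 (5788 of 11625 over all genes). The cKO libraries lay below the WT libraries in 12 of the 28 genes and above them in 0, against 24% and 24.9% of all genes. Among 18 core and assembly factors of snoRNPs, Nop56 was the 1 called, against the same 3.71% of all genes, and the median log2 fold change was 0.08. Of 10 genes of nonsense-mediated decay, the path that degrades several spliced host RNAs, DESeq2 called 0, against 3.71% of all genes. At an unadjusted p-value under 0.05 there was 1 with DESeq2 and 2 with edgeR, against 13.5% and 15.3% of all genes. The median log2 fold change of these 10 was 0.00. Smg6 and Smg1, the most highly counted, had log2 fold changes of -0.05 and -0.01.

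Dleu2 (chr14:61602836-61682373, minus strand), deleted in many chronic lymphocytic leukaemias together with its microRNAs, was counted at 205 and 231 CPM in WT and at 276 and 251 CPM in cKO. Both cKO libraries were above both WT libraries. The mean was 218 ± 18.4 CPM in WT and 264 ± 17.4 CPM in cKO (SD, n = 2 each). Dleu2 had a log2 fold change of 0.27 (SE 0.0890, 95% interval 0.09 to 0.44), at an adjusted p-value of 0.0558 by DESeq2, just outside the threshold. Without WT replicate 2 the gene was called, with a log2 fold change of 0.36 and an adjusted p-value of 0.0141. It was not called without WT replicate 1 (0.18, adjusted p-value 0.824), cKO replicate 1 (0.21, adjusted p-value 0.9995) or cKO replicate 2 (0.33, adjusted p-value 0.431). With edgeR the adjusted p-value was 0.254. The rows of Mir15a and Mir16-1, inside an intron of Dleu2, held 7 to 17.3 fragments together, at most 0.198% of the locus, so the host value describes the intron sequence around them. Trim13 and Kcnrg overlap Dleu2 on the other strand and were counted far less densely, Kcnrg at 4.28 to 9.30 fragments per kb against 110 to 141 for Dleu2.

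Mir17hg (chr14:115044390-115046728, plus strand) was counted at 4.29 and 4.35 CPM in WT and at 7.86 and 5.68 CPM in cKO. The WT values lay close together, both below both cKO values. Its log2 fold change was 0.64 (SE 0.283, 95% interval 0.09 to 1.198), with a DESeq2 p-value of 0.0232 and an adjusted p-value of 0.231. The row does not cover the cluster for which the gene is named. It begins 635, 443, 308 and 126 bp after the ends of Mir17, Mir18, Mir19a and Mir20a, overlaps Mir19b-1 by 2 bp, and contains Mir92-1 alone. The 4 microRNA rows before its start summed to 2.98 and 2.60 CPM in WT and 1.64 and 3.01 CPM in cKO. The genotypes overlapped there, and cKO replicate 1, the library in which Mir17hg was highest, was lowest. With Mir17hg and the 6 microRNA rows merged, the level was 7.65 and 7.497 CPM in WT and 10.1 and 9.51 CPM in cKO, still without overlap, and the DESeq2 log2 fold change was 0.37 (adjusted p-value 0.472). The merged value was added after seeing the data.

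Myc, which is known to act on the Mir17hg promoter, was at 6.62 and 9.51 CPM in WT and at 14.8 and 13.6 CPM in cKO (log2 fold change 0.81, SE 0.223, adjusted p-value 0.0103 by DESeq2 and 0.167 by edgeR). It was 1 of 2 called among the 22 proliferation genes, against 3.71% of all genes, the other being Mybl2 (0.52, adjusted p-value 0.0375). The median log2 fold change of that list was 0.34, and WT replicate 1 was below WT replicate 2 in 22 of 22 genes. For Mir17hg, unlike these, the WT libraries differed by 0.02 on the log2 scale. Whether the level of Myc or of proliferation had a part in the Mir17hg value was not tested. Of 9 measured microRNA processing genes DESeq2 called 0, against 3.71% of all genes. At an unadjusted p-value under 0.05 there were 2 with DESeq2 and 2 with edgeR, against 13.5% and 15.3% of all genes. The median log2 fold change of the 9 was 0.03. Ago2 and Dicer1, the most highly counted, differed by 0.14 (SE 0.0676, adjusted p-value 0.319) and 0.02 (SE 0.0864, adjusted p-value 0.963) on the log2 scale by DESeq2.

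**Figure D4:**
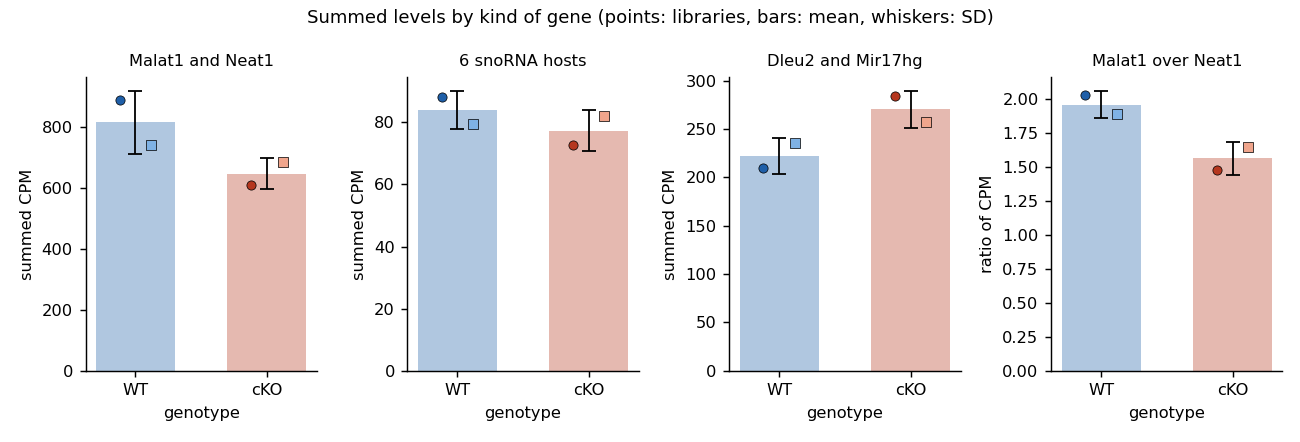
Summed CPM of Malat1 and Neat1, of the 6 snoRNA hosts and of Dleu2 and Mir17hg, and the ratio of Malat1 to Neat1 CPM, by genotype; points are libraries (circles replicate 1, squares replicate 2), bars the mean and whiskers the SD of 2 libraries. The snoRNA hosts overlap between genotypes, while the other 3 quantities do not.

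Malat1 and Neat1 together were at 889 and 743 CPM in WT and 611 and 685 CPM in cKO, a ratio of means of 0.794, although Neat1 by itself overlapped between genotypes. Dleu2 and Mir17hg together were at 209.4 and 235.5 CPM in WT and 284 and 257 CPM in cKO, a ratio of 1.22, with Dleu2 supplying most of the sum and neither gene called. The share of Malat1 in the fragments of the 10 genes was 50.2% and 45.9% in WT and 37.6% and 41.6% in cKO.

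Genes next to the noncoding genes were examined, because labelled RNA from a strong neighbour can run into a row and because several pairs share a start region. None of the neighbours within 10 kb that reached a mean of 1 CPM was called. Zbtb37 starts 67 bp from the row of Gas5 in the other direction. It was at 19.5 and 21.3 CPM in WT and at 25.0 and 22.8 CPM in cKO (log2 fold change 0.22, SE 0.149), above WT in both cKO libraries, whereas Gas5 overlapped. Slc3a2, the heavy chain of an amino acid transporter, starts 118 bp from Snhg1 in the other direction. It was at 35.8 and 37.7 CPM in WT and at 41.7 and 44.1 CPM in cKO (0.22 on the log2 scale, SE 0.118, adjusted p-value 0.393 by DESeq2), the same order as Snhg1. Snhg1 over Slc3a2 was 0.335 and 0.330 in WT and 0.338 and 0.296 in cKO, with overlap.

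Frmd8, upstream of Neat1 on the same strand with a gap of 5493 bp, had a log2 fold change of -0.12 (SE 0.102), beside -0.13 for Neat1. Phactr4, upstream of Snhg3 on the same strand with a gap of 2238 bp, was at 96.2 and 104 CPM in WT and 118 and 106 CPM in cKO, many times the level of Snhg3, and its log2 fold change was 0.16 (SE 0.0953). Mcmdc2, which runs towards Snhg6 from the other strand, had a log2 fold change of 0.66 (SE 0.385) from a low level of 1.91 to 4.42 CPM. Trnau1ap, which runs towards Snhg12, had 0.01 (SE 0.232), and Trim13, on the other strand at Dleu2, -0.03 (SE 0.320). Prss12, next to Snhg8, was below 1 CPM in all libraries, at 4 to 15 fragments. Malat1 had no row other than Mascrna within 10 kb. The difference within a pair was not tested.

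**Figure D5:**
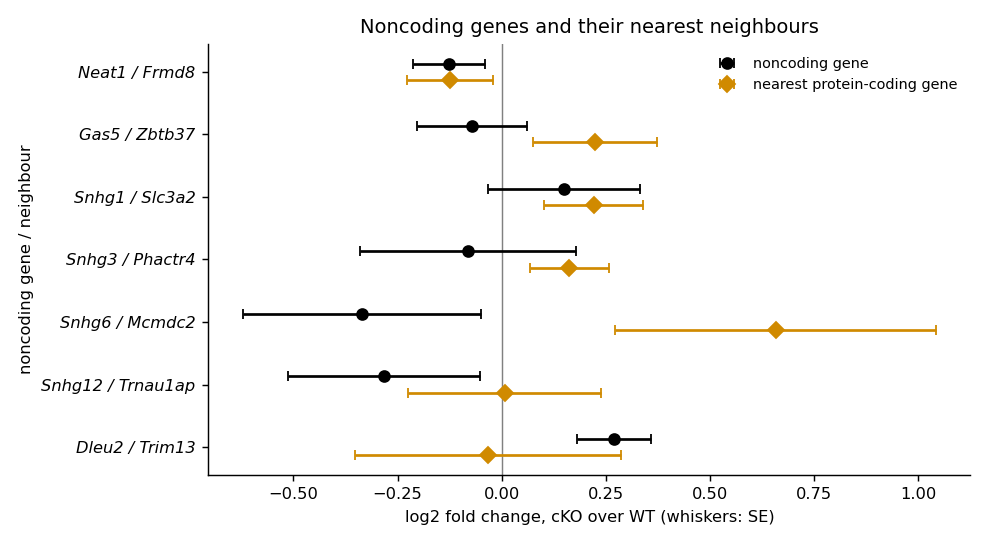
Log2 fold change of cKO over WT with its SE for 7 noncoding genes (black circles) and the nearest protein-coding gene with a mean of at least 1 CPM, or overlapping gene, of each (orange diamonds). Gas5, Snhg3, Snhg6 and Snhg12 lie below 0 beside neighbours above 0, and Dleu2 lies above 0 beside a neighbour below it. Neat1 and Snhg1 have the sign of theirs. The whiskers of Gas5, Snhg3, Trnau1ap (beside Snhg12) and Trim13 (beside Dleu2) reach across 0, so that their signs are not settled.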

How the data were processed

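TTchem-seq libraries of DP thymocytes, 2 WT and 2 cKO, were assigned to groups by sample title. Per the study's methods and the submitters' processing notes, the authors used fastp 0.13.1, STAR 2.7.9a, featureCounts 1.6.1 and the build GRCm38. The methods describe depletion of ribosomal RNA, and the labels capture of polyadenylated RNA; yeast RNA was added but not used for scaling. The deposited table held estimated counts per gene, of which 8.61% of values were fractional. The rule by which fragments were split was not given in the sources used here. Another deposited column held gene length, which for all 24984 genes spanned introns. Per the methods the libraries kept strand and duplicates were marked; whether this table was counted by strand or without duplicates was not given in the sources used here.

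Counts were rounded to whole numbers. CPM were computed from the table totals, 42626473 and 48690591 in WT and 38429786 and 39760312 in cKO. The test was the DESeq2 1.42.0 Wald test (R 4.3.3), with default size factors and filtering and unshrunken log2 fold changes over all genes, p-values being adjusted by the Benjamini-Hochberg method. Intervals were the log2 fold change with its SE at 95%. Tests with edgeR 4.0.16 and limma 3.58.1 (voom), other scalings and filters, a replicate block, and each library left out were alternatives. Between replicates, chi-square per degree of freedom was 40.7 in WT and 30.7 in cKO, so that within a genotype neither library was a copy of the other. The procedure was tested on simulated data. An exact permutation test of 2 against 2 libraries cannot go below 0.333, so none was used. The members and lists were chosen with earlier results of these data known. Named were all members, of each list every called gene or otherwise the 2 with the highest mean CPM, and every called neighbour or otherwise the nearest. Lyz2, Csf1r, Psmb11 and Xist were named after their values were seen. Genes were named as in the table, and 1 called marker gene is not reported here. Promoter and microRNA sequences were from RefSeq, where Neat1 and Snhg6 had no promoter entry.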

Additional observations from a re-analysis of the deposited data

How the results depend on the processing

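Members called lower by DESeq2 numbered 1, and 0 with edgeR, limma voom, edgeR with the replicate block, a fold of at least 1.5, and, by construction, without Rn45s and Malat1 in the table; leaving out a library gave 0 to 1 called lower and 0 to 1 called higher, Dleu2 being called without WT replicate 2. The log2 fold change of Malat1 was -0.45 with edgeR (adjusted p-value 0.162), limma voom (0.127) and edgeR with the replicate block (0.329), and -0.59 to -0.31 with a library left out. Leaving out a library leaves a lone sample in its group, which is then assumed to vary like the other group. Gas5 turned to 0.067 without WT replicate 1 (range -0.20 to 0.07) and Snhg3 to 0.13 without cKO replicate 1 (range -0.32 to 0.13). Leaving out a library also moved Neat1 (-0.21 to -0.04), Snhg6 (-0.56 to -0.14), Snhg8 (-0.89 to -0.42), Snhg12 (-0.53 to -0.07), Dleu2 (0.18 to 0.36) and Mir17hg (0.40 to 0.85), lowest in size without WT replicate 1 for Neat1 and Dleu2 and without cKO replicate 1 for the others. For the 9 members other than Malat1, 90 of 90 values with all 4 libraries kept their direction and stayed uncalled.

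Of all genes, DESeq2 called 431, edgeR 48, limma voom 84 and DESeq2 150 at a fold of at least 1.5; with a library left out DESeq2 called 89 to 446, with 89 without cKO replicate 2, 126 without cKO replicate 1 and 184 without WT replicate 1. With the replicate number as a block DESeq2 called 193 genes and edgeR 1, and Malat1 had a log2 fold change of -0.45 with an adjusted p-value of 0.0226 by DESeq2. Same-numbered libraries did not deviate together (Pearson's r of deviations across 11625 genes -0.03), and the numbers were not taken to pair the samples, although the share of Rn45s followed them (2.71% and 2.44% in replicates 1, 4.30% and 4.05% in replicates 2). Ranked by CPM without division by length, 5 members kept the rank they held by CPM per kb. Depth limits the small rows most, where some nested small RNAs had fewer than 10 fragments in a library.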
